A study of Mus musculus with 6 samples.

Results

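The let-7 family and its close relative miR-98 were examined in 6 samples of whole prefrontal cortex from 5-month-old male mice, 3 labelled BTBR and 3 labelled C57BL/6J. The members are the assays of a rodent microRNA (miRNA) panel whose name, without species prefix, strand mark and copy number, is let-7a, let-7b, let-7c, let-7d, let-7e, let-7f, let-7g, let-7i or miR-98. This rule found 17 of the 750 assays. Of these, 9 read the guide strand, the strand that mostly loads into Argonaute, and 8 the star strand, marked #. All 9 guide-strand assays carried the suffix A in their identifier and all 8 star-strand assays the suffix B, here called pools A and B, so strand and pool cannot be told apart among the members.

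BTBR is an inbred strain often studied for its low sociability and repetitive grooming, and C57BL/6J is a common laboratory strain, here the control. The labels give BTBR T+ Itpr3tf/J as the genotype of the BTBR mice and wild type as that of the controls, and they name C57BL/6J as the strain background of all 6 samples. No mouse had been given a drug. The labels number 3 replicates in each strain without saying that each came from 1 animal, so p-values measure only the spread between these samples, which may be technical. Fewer cells of a type and less RNA per cell cannot be told apart in such bulk tissue. The readout was the cycle threshold of TaqMan OpenArray PCR, the cycle at which the signal crosses a set level, so 1 cycle earlier stands for about 2-fold more product. A value of 40 was read as undetermined, and values from 10 to below 40 as detected.

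The let-7 miRNAs were among the earliest known, found as regulators of developmental timing in worms. In mammals they accumulate as cells differentiate, are abundant in the adult brain, and are held back in stem cells and progenitors by the LIN28 proteins, which block processing of their precursors. They repress messenger RNAs that pair with the seed, bases 2 to 8 of the guide strand, and known targets include growth and cell cycle genes such as Hmga2 and Ras genes.

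The mature guide strands are shown because the members differ from each other by so few bases, which bears on how the assays can be compared. All 9 guide names had an entry in RefSeq for the mouse (build GRCm38.p6). They are printed 5′ to 3′ with the seed in capitals, and the seed is GAGGUAG in all 9.
let-7a: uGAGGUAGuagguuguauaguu
let-7b: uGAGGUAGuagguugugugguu
let-7c: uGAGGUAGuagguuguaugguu
let-7d: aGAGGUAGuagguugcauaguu
let-7e: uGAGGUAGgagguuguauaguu
let-7f: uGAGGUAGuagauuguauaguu
let-7g: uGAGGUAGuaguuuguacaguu
let-7i: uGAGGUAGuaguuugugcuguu
miR-98: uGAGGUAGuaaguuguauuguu

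Counted from 1 at the 5′ end, let-7c differed from let-7a by A19G alone, let-7e by U9G alone and let-7f by G12A alone. The difference between let-7b and let-7c was G17A alone. Against let-7a, let-7d had U1A and U16C, let-7g had G12U and U18C, and miR-98 had G11A and A19U. The most distant from let-7a was let-7i, with 4 differences (G12U, A17G, U18C and A19U). How far each assay also reads RNA of its neighbours in sequence was not tested, so a reading cannot be assigned to 1 member with certainty. The assay MMU-MIR-1961, whose RefSeq mature sequence has the same seed, was undetermined in all 6 samples.

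The genes of these miRNAs lie at several sites, here on GRCm38.p6. Mirlet7a-1 (chr13:48538179-48538272), Mirlet7f-1 and Mirlet7d lie together on the minus strand of chromosome 13. Mirlet7c-2 and Mirlet7b (chr15:85707319-85707403) lie 621 bases apart inside the noncoding gene Lncppara. Mirlet7c-1 (chr16:77599657-77599750) lies 656 bases from Mir99a. Mirlet7e (chr17:17830352-17830444) has Mir99b 94 bases to one side and Mir125a 367 bases to the other. Mirlet7g (chr9:106178840-106178927) lies within the gene Wdr82, and Mirlet7f-2 and Mir98 (chrX:151913214-151913321) within Huwe1. Mirlet7i (chr10:122985640-122985724) lies on chromosome 10. Mirlet7a-2 (chr9:41536716-41536811) lies within the noncoding gene Mir100hg, as do Mir100 and Mir125b-1. The guides of let-7a, let-7c and let-7f can thus come from more than 1 site, so their assays do not report a single gene.

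Several features of the whole panel bear on the members. The number of assays detected was 289 to 305 in the C57BL/6J samples and 347 to 404 in the BTBR samples, a mean difference of 71.3 assays without overlap (exact permutation test, two-sided p = 0.1, the smallest that 3 against 3 samples allow). In pool A the counts were 175 to 180 against 212 to 244, and in pool B 114 to 129 against 114 to 161. Of 80 spots of the 5 endogenous small RNA controls, 59 to 63 were detected in C57BL/6J and 78 to 80 in BTBR, and U6 rRNA was read in 11 to 13 of its 16 spots in C57BL/6J and in all 16 in BTBR. BTBR replicate 3 was the least like its own strain: its Pearson r, over the 189 assays with 6 normalized values, was 0.945 to 0.966 with the C57BL/6J samples and 0.918 and 0.938 with the other BTBR samples. Of the 5 neuronal marker assays, 3 were detected in all 6 samples: hsa-miR-128a and hsa-miR-9# at 13.49 to 14.91 cycles, and mmu-miR-124a at 19.79 to 31.40, earlier in every BTBR sample. Relative to each sample's mean threshold, the mean of these 3 was -4.79 to -2.94 cycles in C57BL/6J and -5.46 to -4.96 in BTBR, without overlap. Of the 3, only mmu-miR-124a was earlier in BTBR: in raw thresholds hsa-miR-128a was later in every BTBR sample and hsa-miR-9# overlapped. The mean of the 4 oligodendrocyte assays detected throughout was also apart, later in BTBR (2.71 to 3.17 against 3.33 to 4.54), whereas the immune, endothelial and mural, red blood cell and choroid plexus lists overlapped. The part of these markers in the members' results was not tested.

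Detection of the members differed between the strains in the same direction. The C57BL/6J samples read 9, 8 and 8 of the 17 assays, and the BTBR samples 12, 13 and 11 (means 8.33 ± 0.577 and 12.0 ± 1.00, SD, n = 3 each; exact permutation test, two-sided p = 0.1). The counts did not overlap. Guide strands made up most of the difference, with 6 of 9 in every C57BL/6J sample against 9, 9 and 8 in BTBR, while star strands numbered 3, 2 and 2 against 3, 4 and 3. Over all samples, 8 members were detected 6 times, 5 in some samples only and 4 in none. Those 4 were the star-strand assays mmu-let-7d#, hsa-let-7i#, hsa-let-7b# and hsa-let-7f-1#. Counted in the authors' normalized table, which holds 11 of the members, the mean difference was 1.67 in place of 3.67.

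**Figure D1:**
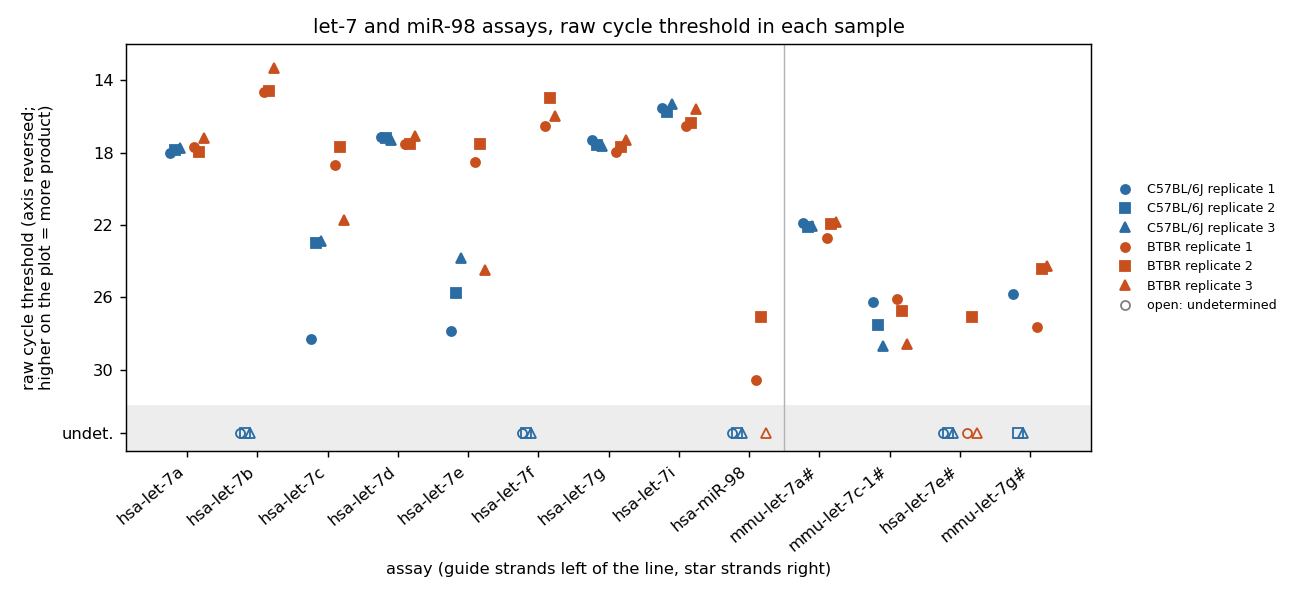
Raw cycle threshold (vertical axis, reversed, in cycles) of the 13 let-7 and miR-98 assays detected in at least 1 sample, 1 symbol per sample, with undetermined wells as open symbols in the grey band. The assays hsa-let-7b and hsa-let-7f have readings in the 3 BTBR samples and none in C57BL/6J, hsa-let-7c and hsa-let-7e span 10.61 and 10.33 cycles, and hsa-let-7a, hsa-let-7d, hsa-let-7g and hsa-let-7i over at most 1.22.

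On raw thresholds the 4 guide-strand assays hsa-let-7a, hsa-let-7d, hsa-let-7g and hsa-let-7i were steady across all 6 samples. They are called steady below in that sense only: relative to each sample's mean threshold, hsa-let-7i spanned 2.01 cycles. Raw thresholds of hsa-let-7a (assay 000377) were 18.03, 17.84 and 17.74 cycles in C57BL/6J and 17.72, 17.95 and 17.21 in BTBR. The strains overlapped and their means, 17.87 ± 0.147 and 17.63 ± 0.380 (SD, n = 3 each), differed by less than the SD of the BTBR samples. For hsa-let-7d (002283) the readings were 17.15, 17.21 and 17.33 against 17.53, 17.53 and 17.08, and for hsa-let-7g (002282) 17.31, 17.58 and 17.66 against 17.97, 17.71 and 17.33. Both overlapped between strains, each with BTBR replicate 3 among the early readings. The assay hsa-let-7i (002221) read 15.52, 15.78 and 15.30 cycles in C57BL/6J and 16.52, 16.37 and 15.60 in BTBR, where 2 of 3 BTBR samples were later than every C57BL/6J sample. Across the 6 samples these 4 assays spanned 0.456 to 1.22 cycles, against a median span of 1.81 over the 237 assays detected in all samples. They were grouped for their small spans after the values were seen, so that comparison is no test of steadiness.

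On the authors' normalized values, the 4 steady guide strands lay lower in BTBR without passing the test, which was limma over the 231 assays with at least 2 values in each strain, on minus the threshold so that higher means more miRNA, with a Benjamini-Hochberg adjusted p of 0.05. Normalized thresholds of hsa-let-7g were 17.23 ± 0.208 and 18.04 ± 0.277 cycles (SD, n = 3 each), a log2 change of -0.82 (standard error 0.30, limma adjusted p = 0.0725). Those of hsa-let-7i were 15.37 ± 0.0625 and 16.30 ± 0.442, a change of -0.92 (0.33, limma adjusted p = 0.0687). The changes of hsa-let-7d and hsa-let-7a were -0.62 (0.34, limma adjusted p = 0.184) and -0.49 (0.48, limma adjusted p = 0.446). All 4 lay above the median change of the 231 assays, -1.13. When the normalized values were centred on each sample's median, the signs turned, to 0.36 for hsa-let-7g, 0.25 for hsa-let-7i, 0.55 for hsa-let-7d and 0.69 for hsa-let-7a, none of them past the threshold. Without BTBR replicate 3, hsa-let-7i passed at -1.14 (limma adjusted p = 0.0345), as did 101 of 212 assays.

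The assay hsa-let-7c (000379) was the one member read in every sample whose raw thresholds did not overlap between strains. Its raw thresholds were 28.30, 23.00 and 22.86 cycles in C57BL/6J and 18.70, 17.69 and 21.75 in BTBR. Every BTBR sample was earlier than every C57BL/6J sample, but the gap between BTBR replicate 3 and C57BL/6J replicate 3 was about 1 cycle, while C57BL/6J replicate 1 was over 5 cycles later than its group. The normalized threshold averaged 23.89 ± 2.94 for C57BL/6J and 19.71 ± 2.07 for BTBR (SD, n = 3 each). This difference of 4.18 on the log2 scale, or 18.1-fold, did not pass (standard error 1.73, limma adjusted p = 0.107). Without C57BL/6J replicate 1 the change was 2.48 (limma adjusted p = 0.156), and over the 20 alternatives it stayed between 2.48 and 5.36 with adjusted p from 0.0502 to 0.243.

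The readings of hsa-let-7e (002406) split inside the BTBR group. Raw thresholds were 27.85, 25.74 and 23.83 cycles in C57BL/6J and 18.52, 17.52 and 24.51 in BTBR. BTBR replicates 1 and 2 were over 5 cycles earlier than all other samples, and BTBR replicate 3 lay within the C57BL/6J range. The normalized means of 24.89 ± 1.83 and 20.52 ± 3.89 cycles (SD, n = 3 each) gave a log2 change of 4.38 (standard error 2.06, limma adjusted p = 0.138). Without BTBR replicate 3 the change was 6.62 and passed (standard error 1.09, limma adjusted p = 0.0112), in a fit where 101 of 212 assays passed. Without any other sample it ranged from 3.12, without BTBR replicate 2 (limma adjusted p = 0.324), to 5.25, without C57BL/6J replicate 3, and did not pass.

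Readings in which BTBR replicates 1 and 2 were both over 3 cycles earlier than the other 4 samples, a pattern singled out after the values were seen, occurred in 9 of the 237 assays detected in all samples (3.8%), and hsa-let-7c and hsa-let-7e were among them. The others were hsa-miR-30b, hsa-miR-181a, hsa-miR-409-3p, hsa-miR-148b, mmu-miR-337, HSA-MIR-421 and MMU-MIR-1274A.

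Of the 7 members tested, 1 fell, 0 rose and 6 did not pass. The background was 36.8% of the 231 assays past the threshold, 35.5% lower and 1.3% higher in BTBR, and the members' share was below it. The member that fell was the star strand mmu-let-7a# (002478), with raw thresholds of 21.91, 22.11 and 22.06 cycles in C57BL/6J and 22.73, 21.97 and 21.83 in BTBR. The raw values of the strains overlapped. Its normalized thresholds were 21.27, 21.39 and 21.32 against 23.15, 23.44 and 22.22 cycles, later in every BTBR sample, and gave a log2 change of -1.61 (standard error 0.39, limma adjusted p = 0.0301), 3.05-fold less in BTBR. On raw thresholds of the same wells less the global mean, the sample's own mean threshold of the 237 assays read in every sample, it was -0.55 (standard error 0.42, limma adjusted p = 0.387). There limma called 0 members and 0 of 231 assays (0%), with 2 of the 7 members and 74 of all assays at an unadjusted p under 0.05. The fall also lost its call without any 1 sample other than BTBR replicate 3, with changes from -1.36 to -1.64 and limma adjusted p from 0.06 to 0.0858. The median change of the 7 members was -0.62 on the normalized values and -0.54 on the global mean scale, against -1.13 and -0.39 over the 231 assays.

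**Figure D2:**
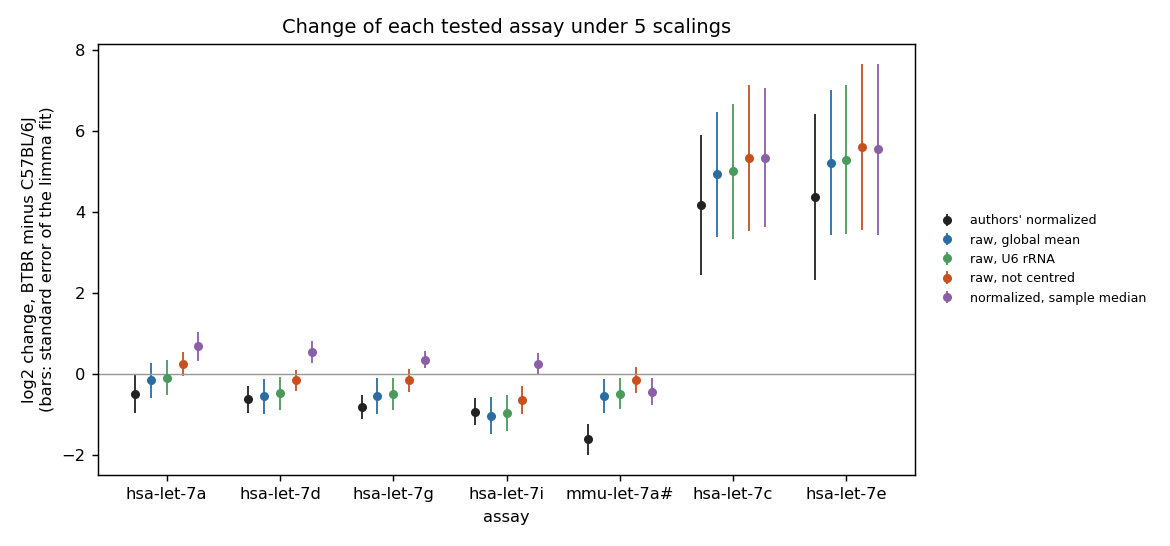
Log2 change, BTBR minus C57BL/6J (vertical axis), of the 7 tested assays under 5 scalings of the thresholds; points are limma estimates and bars their standard errors. The assays hsa-let-7c and hsa-let-7e lie between 4.18 and 5.62 under these scalings, hsa-let-7a, hsa-let-7d, hsa-let-7g and hsa-let-7i turn positive with sample-median centring (hsa-let-7a also uncentred), and mmu-let-7a# goes from -1.61 to -0.15.

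By the plain criterion of strains that do not overlap, 4 of the 7 members with 6 normalized values were apart (hsa-let-7c, hsa-let-7g, hsa-let-7i and mmu-let-7a#), against 59.3% of the 189 such assays. On raw thresholds 1 of 8 was apart, hsa-let-7c, against 32.5% of 237, and on thresholds centred on the global mean again 1 of 8, hsa-let-7c, against 35%.

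Differences of raw thresholds between members within a sample are free of any constant shift between samples, and they set the members against each other. A shift that differs between pools cancels only where both assays are of the same pool, as in all pairs of guide strands. In C57BL/6J, hsa-let-7c crossed the threshold 10.27, 5.16 and 5.12 cycles after hsa-let-7a, from which it differs by a single base, and in BTBR 0.98, -0.26 and 4.54 cycles after it. In BTBR replicates 1 and 2 both assays thus read nearly alike, and in BTBR replicate 3 they were nearly as far apart as in C57BL/6J replicates 2 and 3. The strain difference was -5.09 cycles (means 6.85 ± 2.96 and 1.75 ± 2.49, SD, n = 3 each; exact permutation test, two-sided p = 0.1, adjusted p = 0.243). Relative to hsa-let-7a, hsa-let-7e was later by 9.82, 7.89 and 6.09 cycles in C57BL/6J and by 0.80, -0.43 and 7.30 in BTBR, which overlapped because of BTBR replicate 3 (exact permutation test, two-sided p = 0.2). Between themselves hsa-let-7e and hsa-let-7c differed by 1.09 ± 1.60 cycles in C57BL/6J and 0.802 ± 1.70 in BTBR (n = 3 each, ± SD), a strain difference of -0.28 cycles that was smaller than the spread of either group.

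Among the steady assays the differences were small. The closest pair was hsa-let-7d and hsa-let-7g, whose difference was -0.286 ± 0.108 cycles in C57BL/6J and -0.290 ± 0.135 in BTBR (n = 3 each, ± SD). The assay hsa-let-7i crossed earlier than hsa-let-7a by 2.51, 2.06 and 2.44 cycles in C57BL/6J and by 1.2, 1.58 and 1.61 in BTBR, without overlap, a strain difference of 0.878 cycles (exact permutation test, two-sided p = 0.1, adjusted p = 0.243). On the normalized values that difference was 0.436 and the strains overlapped. In all, 17 pairs were compared, 15 of guide strands and 2 of a guide with its own star, and adjusted over them 0 passed; 0.1 is the smallest unadjusted p possible. The strains did not overlap in 6 of the 15 guide pairs (40%), against 37% of the 11476 pairs of pool A assays detected in all samples. Of those 6, 4 were the pairs of hsa-let-7c with let-7a, let-7d, let-7g and let-7i.

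**Figure D3:**
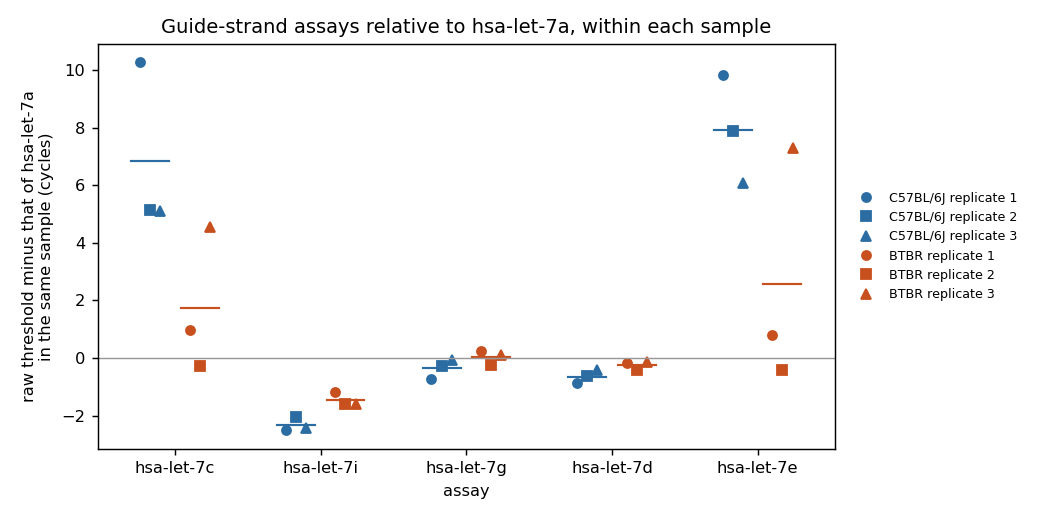
Raw threshold of 5 guide-strand assays minus that of hsa-let-7a in the same sample (vertical axis, cycles), 1 symbol per sample, with short lines at the strain means. BTBR replicates 1 and 2 lie within 1 cycle of hsa-let-7a for hsa-let-7c and hsa-let-7e, and BTBR replicate 3 lies 4.54 and 7.30 cycles above it.

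The assays hsa-let-7b (000378) and hsa-let-7f (000382) were undetermined in all C57BL/6J samples and read early in all BTBR samples. Raw thresholds in BTBR were 14.68, 14.59 and 13.31 cycles for hsa-let-7b (14.19 ± 0.768, SD, n = 3) and 16.55, 15.002 and 16.002 for hsa-let-7f (15.85 ± 0.784, SD, n = 3). BTBR replicate 3 was the earliest of the 3 for hsa-let-7b and lay between the others for hsa-let-7f. These assays could not enter the test, and no fold can be given against undetermined wells. With undetermined wells entered as 40, the authors' deposited table lists differences of mean thresholds of -25.76 cycles for hsa-let-7b (adjusted p = 0.00683) and -24.05 for hsa-let-7f (adjusted p = 0.00595).

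The same pattern, detected in 3 BTBR and 0 C57BL/6J samples, occurred in 28 of the 750 assays (3.73%), in 6.9% of pool A and 0.536% of pool B, and the reverse in 0.4%. The 2 members were among the 9 guide-strand assays, all of pool A. By mean BTBR threshold hsa-let-7b ranked 2 and hsa-let-7f 4 among the 28, whose means ran from 12.56 to 29.89 cycles with a median of 18.66. Their nearest sequences were read in C57BL/6J: hsa-let-7a, which is 1 base from let-7f, at 17.74 to 18.03 cycles, and hsa-let-7c, which is 1 base from let-7b, at 22.86 to 28.30. The lower counts of detected pool A assays and of detected control spots in C57BL/6J moved with this result, and their part in it was not tested.

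The assay hsa-miR-98 (000577) was read late in BTBR replicates 1 and 2, at 30.57 and 27.11 cycles, and was undetermined in the other 4 samples. It shares a host gene with let-7f-2, and its readings followed those samples in which hsa-let-7c and hsa-let-7e were early. BTBR replicates 1 and 2 also had the most pool A assays detected, 244 and 243 against 175 to 212 in the other samples. The part of this in the hsa-miR-98 readings was not tested. The assay hsa-miR-98 is absent from the normalized table.

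Mature star strands of let-7a, let-7c and let-7g are shown, with bases 2 to 8 in capitals, because those of different genes can be alike or differ. The target sequences of the assays were not given in the sources used here. The name let-7a# does not say which of the let-7a genes is meant, and the let-7a-1 star strand is identical to that of let-7c-2.
let-7a-1-3p: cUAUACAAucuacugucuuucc
let-7c-2-3p: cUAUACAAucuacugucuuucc
let-7a-2-3p: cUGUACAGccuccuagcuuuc
let-7c-1-3p: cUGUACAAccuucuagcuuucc
let-7g-3p: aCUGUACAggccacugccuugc

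The star strand mmu-let-7c-1# (002479), from the chromosome 16 copy of let-7c, had another pattern across samples than the guide assay hsa-let-7c. The let-7c guide is the same from Mirlet7c-1 and Mirlet7c-2, so guide and star readings do not come from the same set of genes. Raw thresholds of the star were 26.27, 27.53 and 28.71 cycles in C57BL/6J and 26.10, 26.76 and 28.60 in BTBR. They covered nearly the same range in each strain. With all detected raw wells on the global mean scale, its log2 change was -0.04 (standard error 0.97, limma adjusted p = 0.969). In the rebuilt quantile normalization with late readings kept, it was -4.78 (standard error 1.85, limma adjusted p = 0.0916), also short of the threshold, so the value depended on the scaling. The guide came 5.44 cycles later in C57BL/6J replicate 1 than in C57BL/6J replicate 3, while the star was 2.44 cycles earlier there. The star minus guide difference was 2.79 ± 4.22 cycles in C57BL/6J and 7.77 ± 1.15 in BTBR (n = 3 each, ± SD; exact permutation test, two-sided p = 0.1, adjusted p = 0.243). In the authors' deposited table this assay has a difference of 9.43 cycles, later in BTBR, with 2 of its BTBR readings, raw 26.76 and 28.60, standing at 40 in the normalized table.

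For let-7a the star minus guide difference was 4.16 ± 0.239 cycles in C57BL/6J and 4.55 ± 0.50 in BTBR (n = 3 each, ± SD; exact permutation test, two-sided p = 0.3), with overlapping strains. On the normalized values that difference between strains was 1.13 cycles in place of 0.396, and the strains did not overlap. For let-7a as for let-7c-1, guide and star are of different pools, so a shift between pools would not cancel. The assay mmu-let-7g# (002492) was read at 25.79 cycles in C57BL/6J replicate 1 alone of its group and at 27.62, 24.42 and 24.29 in BTBR, of which the first stands at 40 in the normalized table. Its guide hsa-let-7g was detected in all samples. The assay hsa-let-7e# (002407) had 1 reading, 27.1 cycles in BTBR replicate 2.

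The miRNAs made beside let-7 genes were taken as a list: miR-99a, miR-99b, miR-100, miR-125a and miR-125b, both strands, 11 assays. The miR-125 miRNAs are known as the vertebrate counterparts of lin-4, which acts with let-7 in worm development. Of the 8 assays tested, 3 fell, 0 rose and 5 did not pass, with a median log2 change of -1.28 against -1.13 over the 231 assays. The share that fell was close to the 35.5% of the whole panel. Those that fell were hsa-miR-125a-3p (log2 change -2.82, standard error 0.68), rno-miR-125b# (-2.04, 0.46) and hsa-miR-100 (-1.33, 0.31), each with a limma adjusted p of 0.0301. On the global mean scale 0 of 8 passed in limma, with 6 at an unadjusted p under 0.05 (74 of all 231). There the log2 changes of these 3 assays, in the same order, were -1.40, -0.56 and -1.42. Without C57BL/6J replicate 2 or 3 or BTBR replicate 1 or 2, 0 passed on the normalized values, with limma adjusted p from 0.0646 to 0.107 for these 3 assays. In these fits their changes ran from -2.24 to -3.25 for hsa-miR-125a-3p, -1.65 to -2.14 for rno-miR-125b# and -1.11 to -1.42 for hsa-miR-100. Of 212 to 221 assays, 0 to 8 passed in them. Without C57BL/6J replicate 1 hsa-miR-125a-3p alone lost its call, at -2.60 (limma adjusted p = 0.0589).

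In the chromosome 17 cluster, which spans 692 bases, the values of the neighbours are given side by side, and differences between them were not tested. The assay hsa-miR-99b read 16.24, 16.31 and 15.74 cycles in C57BL/6J and 16.68, 16.82 and 16.72 in BTBR, slightly later in every BTBR sample (log2 change -0.98, limma adjusted p = 0.0561, and 0.19 on median-centred values). The assay hsa-miR-125a-5p was undetermined in C57BL/6J replicate 1, read 27.06 and 27.71 cycles in the other C57BL/6J samples, and 20.15, 19.50 and 26.27 in BTBR. Like hsa-let-7e it was early in BTBR replicates 1 and 2 and late in the rest, whose order differed. Its log2 change was 3.58 (standard error 2.42, limma adjusted p = 0.278, with 2 C57BL/6J values), which did not pass. It was 5.95 and passed without BTBR replicate 3 (limma adjusted p = 0.00658), but 2.29 without BTBR replicate 1 (0.507) and 2.51 without BTBR replicate 2 (0.525). The other arm of the same hairpin, hsa-miR-125a-3p, had raw thresholds of 22.93, 24.02 and 23.03 against 24.67, 24.65 and 23.69 cycles, later in BTBR replicates 1 and 2. The star strand hsa-miR-99b# was read in BTBR replicates 2 and 3 only, at 22.22 and 23.31 cycles.

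The guides of let-7c and let-7a are also made on chromosomes 15 and 13, so their assays do not report the following sites alone. Values are again given side by side, and differences between neighbours were not tested. On chromosome 16, hsa-miR-99a, the neighbour of let-7c-1, read 15.44, 15.43 and 15.93 cycles in C57BL/6J and 16.52, 16.78 and 16.40 in BTBR. It was later in every BTBR sample, whereas hsa-let-7c was earlier in each (hsa-miR-99a log2 change -1.23, standard error 0.43, limma adjusted p = 0.0674). Its star strand rno-miR-99a# overlapped between strains, at 23.91 to 26.91 and 23.05 to 26.13 cycles, and the sign of its change depended on the scaling, -1.34 on the normalized values and 0.27 on the global mean scale, past the threshold on neither. The assay hsa-miR-100, made beside let-7a-2 on chromosome 9, read 15.56, 15.50 and 15.27 against 16.55, 16.57 and 16.27 cycles, without overlap, while hsa-let-7a overlapped. The star assay hsa-miR-125b-1#, from the same host gene, was undetermined in C57BL/6J and read at 24.25, 25.68 and 24.93 cycles in BTBR, the pattern of hsa-let-7b and hsa-let-7f. The guide hsa-miR-125b had a log2 change of -0.61 (standard error 0.34, limma adjusted p = 0.193), and mmu-miR-125b#, with 1 BTBR value left in the normalized table, was not tested.

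**Figure D4:**
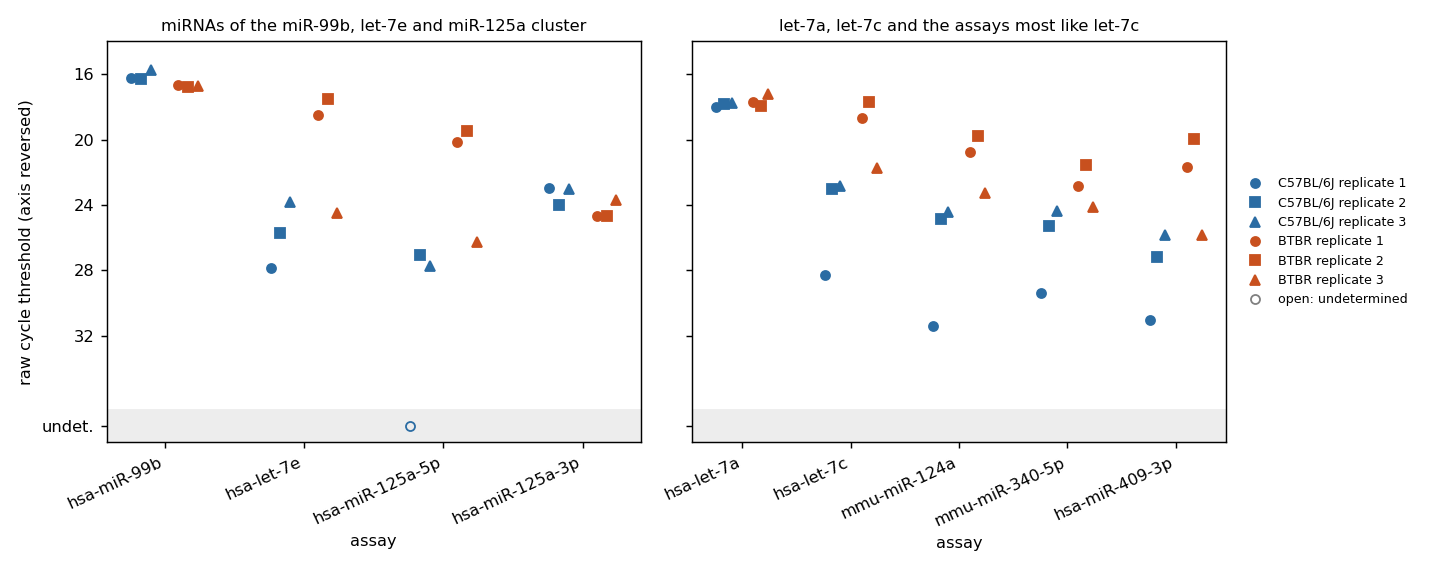
Raw cycle threshold (vertical axis, reversed) in each sample, 1 symbol per sample, for the chromosome 17 cluster (left) and for let-7a, let-7c and the 3 assays most like let-7c (right). On the left hsa-let-7e and hsa-miR-125a-5p are early in BTBR replicates 1 and 2 and hsa-miR-99b stays between 15.74 and 16.82 cycles, and on the right the assays alike with hsa-let-7c share its late reading in C57BL/6J replicate 1.

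Likeness to other miRNAs was measured as Pearson r over the 6 samples on raw thresholds centred on the global mean, among the other 236 assays detected throughout, for guide strands whose centred values spanned over 2 cycles. The samples share their scaling, and r describes these 6 samples only. The assays most like hsa-let-7c were mmu-miR-124a (r = 0.992), a neuronal miRNA, mmu-miR-340-5p (0.981) and hsa-miR-409-3p (0.978). Raw thresholds of mmu-miR-124a were 31.40, 24.83 and 24.44 cycles in C57BL/6J and 20.78, 19.79 and 23.29 in BTBR. The neuronal marker hsa-miR-9 was likewise earliest in BTBR replicate 2 (13.90 cycles) and then BTBR replicate 1 (16.76), and was undetermined in the other 4 samples. The other 3 neuronal markers had different orders. Readings of hsa-miR-128a were 13.81 to 13.99 cycles in C57BL/6J and 14.47 to 14.91 in BTBR, later in BTBR, and those of hsa-miR-9# overlapped at 13.49 to 13.76 and 13.74 to 14.09. The assay hsa-miR-124# was read in the 3 C57BL/6J samples alone.

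For hsa-let-7e the 3 most alike were hsa-miR-30b (r = 0.981), hsa-miR-431 (0.979) and mmu-miR-337 (0.978). The readings of hsa-miR-30b were 35.30, 27.89 and 27.01 cycles in C57BL/6J and 17.59, 15.83 and 26.75 in BTBR, again with BTBR replicate 3 near C57BL/6J. For hsa-let-7i, whose centred values spanned 2.01 cycles, they were mmu-miR-598 (0.985), hsa-miR-411 (0.984) and hsa-miR-125b (0.980). Within the family, hsa-let-7c and hsa-let-7e had r = 0.920 with each other, the steady 4 had 0.736 to 0.982 among themselves, and across the 2 sets r ran from -0.97 to -0.55. These values share the centring term of each sample.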

How the data were processed

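RNA of 6 prefrontal cortices (RNA integrity number 9) was purified on columns, and 100 ng of each was reverse transcribed, pre-amplified and run on the OpenArray rodent panel, per the labels' protocols. The raw thresholds (a score in cycles) were deposited without normalization, and the normalized thresholds are a score that the authors quantile-normalized, per the file headers. Rebuilding them from the raw thresholds gave the deposited values within 3.33e-09 cycles. For this, values under 10 were set to 40, assays with at least 3 detected values were kept, and 40 was ranked as a value. Normalized values later than 29.19, the latest one deposited, were then set to 40, and assays left with under 3 detected values dropped. The authors' deposited comparison holds p-values, a ratio (fold), a log2 value that is the mean threshold of BTBR less that of C57BL/6J, and a score for the test statistic. Threshold software and shared arrays: not given in the sources used here. PCR thresholds have no counting depth, and each assay was run once per sample, so the 3 samples per strain set the precision.

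Minus the normalized threshold, 40 as missing, was fitted with limma 3.58.1 in R 4.3.3 (lmFit, eBayes, strain as the single term), on all assays with 2 values in each strain, adjusted over all of them. Within-sample differences of raw thresholds and detection counts used exact permutation tests, two-sided. The fit was checked on simulated data with independent noise for each assay. These held no shift of whole samples and no odd replicate, so the check does not bear on scaling. Alternatives covered scaling, late and undetermined values, the filter on detection, the replicate number as a block and each sample left out. Groups came from the sample titles. Named were all members, the cluster list's falls with up to 4 of its largest changes, panel assays with the let-7 seed and the 3 assays most correlated with each widely spread guide strand. The other assays early in BTBR replicates 1 and 2 and further neuronal and star assays were named after their values were seen. Members and lists were chosen with earlier results of these data known.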

Additional observations from a re-analysis of the deposited data

Results flagged for a closer look

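Readings in BTBR with none in C57BL/6J, which the test between strains could not use, were found for 4 members. The mean raw threshold over the BTBR samples with a reading was 14.19 cycles for hsa-let-7b (3 samples), 15.85 for hsa-let-7f (3 samples), 28.84 for hsa-miR-98 (2 samples) and 27.1 for hsa-let-7e# (1 sample). No direction of change follows from undetermined wells, and C57BL/6J also had fewer detected control spots (59 to 63 of 80, against 78 to 80). With 3 samples in each strain, no outlier test was run on single values.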

How the results depend on the processing

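The count of members past the threshold, 1 on the normalized values, was 0 on raw thresholds of the same wells centred by global median, global mean, global mean within pool or not at all, or scaled to U6 rRNA, to the other controls or to common quantiles of detected values. It was also 0 on normalized values centred on sample medians, on all detected raw wells and with values under 10 cycles kept, and 3 with 40 kept as a value (hsa-let-7b and hsa-let-7f added; 96 of 306 assays passed). For the cluster list, 3 on the normalized values, the count was 0 under those same raw and median scalings except quantiles of detected values, which gave 3. Leaving out 1 sample gave 0 to 3 members and 0 to 4 cluster assays, with the highest counts without BTBR replicate 3, where 101 of 212 assays passed. The members' count was 0 without C57BL/6J replicate 1, where 64 of 220 assays passed, and without each other sample, where 0 to 8 did. Leaving out 1 sample also gave 7 to 13 pairs apart (7 with all; 13 without C57BL/6J replicate 3, 12 without BTBR replicate 3) and a difference of 3.17 to 4.17 in members detected. Members detected differed by 1.67 in the normalized table. Whether the replicate numbers pair the samples could not be decided. Deviations of same-numbered samples correlated from -0.0013 to 0.421, and those of other samples across strains from -0.377 to 0.256. With a replicate block 0 members and 1 cluster assay passed, 32 assays in all against 85.

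Signs turned on median-centred normalized values for hsa-let-7a (0.69), hsa-let-7i (0.25), hsa-let-7g (0.36), hsa-let-7d (0.55), hsa-miR-99b (0.19) and hsa-miR-125b (0.57), and without centring for hsa-let-7a (0.25). The change of rno-miR-99a# turned with the global mean (0.27, the same on all detected wells), global median (0.022), mean within pool (0.42), no centring (0.67), U6 rRNA (0.34), other controls (0.26) and values under 10 kept (0.32). The cause of these changes was not tested. Changes of hsa-let-7c and hsa-let-7e kept their sign in all 20 alternatives. Each assay had 1 PCR per sample, with 3 samples per strain. In the main fit (normalized values of all samples, 40 as missing, strain alone) standard errors of the members reached 2.06 on the log2 scale. Some alternatives gave larger ones, such as 2.31 for hsa-let-7e without BTBR replicate 1 and 6.36 for mmu-let-7g# with 40 kept as a value.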
